A study of Mus musculus with 6 samples.

Results

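The nuclear-encoded subunits of the oxidative phosphorylation complexes were followed in lens ectoderm of mouse embryos, in embryos lacking type I BMP receptors (receptors of bone morphogenetic proteins) and in wild-type embryos. Members were the array probes whose platform gene symbol follows the naming of a subunit of complex I (Ndufa, Ndufb, Ndufc, Ndufs or Ndufv and a number), complex II (Sdha to Sdhd), complex III (Uqcr), complex IV (Cox, a number from 4 to 8 and a letter from a to c) or complex V (Atp5), with the assembly factors called Ndufaf left out. This selected 106 of 46632 probes, for 74 of the 17711 genes the platform names: 44 probes for 32 genes of complex I, 6 for 4 genes of complex II, 9 for 7 genes of complex III, 21 for 15 genes of complex IV and 26 for 16 genes of complex V.

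Complexes I to IV of the inner mitochondrial membrane pass electrons from NADH and succinate to oxygen, and complexes I, III and IV pump protons while they do so. Complex V, the ATP synthase, lets the protons flow back and makes ATP. Most subunits are encoded in the nucleus and assemble around a small set encoded by mitochondrial DNA, and several complex IV subunits exist as a general isoform and as isoforms known from heart and skeletal muscle or from testis.

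The KO group held 3 samples of a line that the titles call ALK23, with these receptors deleted in the lens placode, which is the thickened surface ectoderm that forms the lens. The WT group held 3 wild-type samples. Both were taken at embryonic day 9.5 on a mixed C57BL6 and FVB background. The lens ectoderm was cut by laser from frozen sections of 10 microns, and 15 ng of total RNA per sample was amplified to cDNA before hybridization to an Illumina bead array. The tissue label is broader than lens and also allows retina. The sources used here do not give the Cre driver, the deleted exons or whether WT embryos carried Cre. The series text says that RNA was pooled, so the 6 arrays may not stand for 6 separate embryos, and p-values measure only the spread between these samples.

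Across the series, 45.7%, 43.0% and 45.0% of probes were detected on the KO arrays and 41.3%, 39.6% and 44.7% on the WT arrays (detection p below 0.05), with a median of 35 or 36 beads behind each value. Of 12 lens and surface ectoderm markers 11 were measured. Their mean level on the normalized log2 scale was 9.20, 10.00 and 9.89 on KO arrays and 9.28, 10.04 and 9.45 on WT arrays. Markers of neighbouring tissue were also measured: 7 of 10 for the optic vesicle, retina and pigment epithelium, 7 of 10 for periocular mesenchyme, 5 of 8 for blood, 4 of 6 for endothelium and 3 of 5 for neurons. The mean of the pigment genes Pmel and Dct was 9.36, 5.84 and 6.44 on KO arrays and 9.85, 5.75 and 9.55 on WT arrays. Both genotypes thus held arrays of high and of low pigment level, with more high ones in WT. The arrays of high pigment level, KO 1, WT 1 and WT 3, had the lowest lens marker means. Bmpr1a had 2 tested probes: ILMN_1251119 read 9.60, 9.69 and 9.81 in KO against 9.18, 9.86 and 9.70 in WT, and ILMN_2653312 read 9.17, 9.56 and 9.58 in KO against 9.22, 9.84 and 9.5 in WT. The 1 tested Acvr1 probe (ILMN_2660103) read 7.51, 6.49 and 6.73 in KO against 6.63, 8.73 and 7.58 in WT. Both receptors' groups overlapped. Where these probes lie relative to the deleted part is not stated, so they do not check the genotype labels.

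RNA of nearly the whole set of subunits was detected in this tissue. A probe was tested where it was detected on at least 3 of the 6 arrays, which kept 89 of the 106 member probes and 68 of the 74 genes. Of these genes, 66 had a probe detected on all 6 arrays, and 65 lay above the median level of all tested probes. The less well detected ones were the complex I accessory subunits Ndufb7, detected on 2 KO arrays and 1 WT array, and Ndufb11, detected on 2 KO and 2 WT arrays.

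The 6 genes without a tested probe were all isoforms of complex IV: Cox6a2, Cox6b2, Cox7a1, Cox7b2, Cox8b and Cox8c. Cox6a2, Cox7a1 and Cox8b are known as the heart and skeletal muscle isoforms, and Cox6b2, Cox7b2 and Cox8c as isoforms of the testis. Probes of 5 of them were undetected on every array, and each of the 2 probes of Cox6b2 was detected on 1 array (ILMN_1229627 on a KO array, ILMN_2764551 on a WT array). Their normalized values lay at the floor of the arrays, between 5.14 and 5.93 on KO arrays and between 5.15 and 5.89 on WT arrays. An undetected probe gives a bound for that probe on these arrays and does not show that the RNA was absent.

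The general isoforms of the same subunits were detected on all 6 arrays. Cox6a1 (ILMN_2638875) read 9.25, 9.10 and 9.13 in KO and 8.56, 8.45 and 9.40 in WT. Cox6b1 (ILMN_1254971) read 11.91, 11.70 and 11.85 in KO and 11.90, 11.56 and 11.91 in WT. Cox7a2 (ILMN_2733698) read 9.13, 8.46 and 8.79 in KO and 9.20, 8.11 and 8.23 in WT. In each of these genes the groups overlapped, and none sat near the floor on any array. Cox7b (ILMN_2671689) read 9.21, 9.97 and 9.93 in KO and 9.85, 9.88 and 10.02 in WT. Cox8a (ILMN_2598201) read 10.82, 10.27 and 10.44 in KO and 10.41, 10.38 and 10.22 in WT. The general isoforms were thus detected on every array, while their partners were detected on none or, for each Cox6b2 probe, on 1. Striated muscle markers were at background too: 10 of 11 were on the array, 0 passed the filter, and Myh6, Tnnt2, Myl7, Myod1, Myog and Ckm were undetected everywhere. Signal also depends on how well a probe hybridizes, so it is not compared in size between isoforms.

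**Figure D1:**
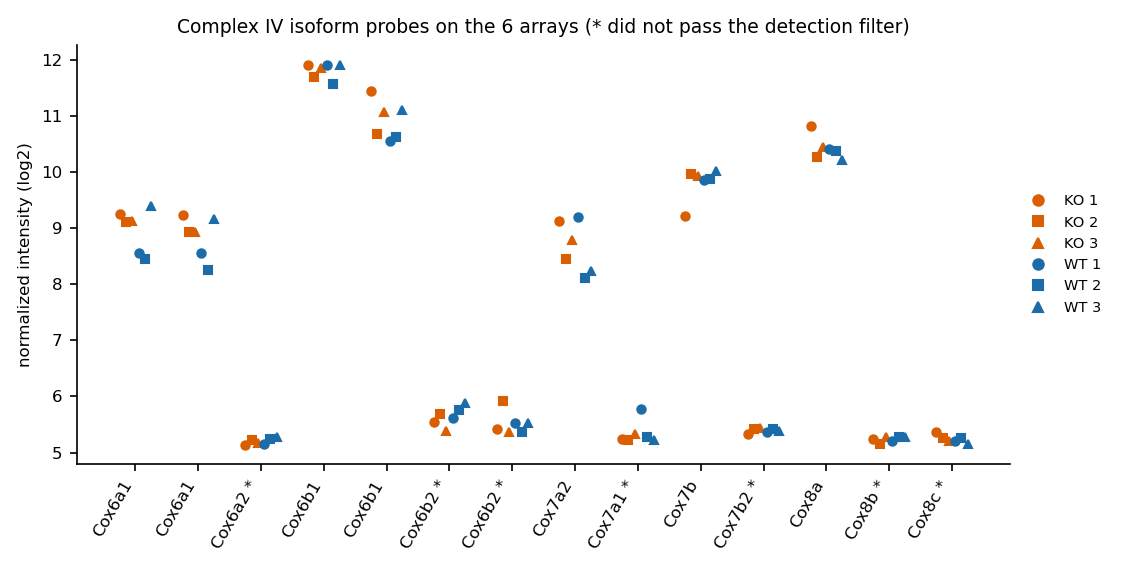
Normalized log2 intensity of each complex IV isoform probe on the 6 arrays, with KO arrays and WT arrays as separate points and probes that did not pass the detection filter marked by a star. The probes of Cox6a2, Cox6b2, Cox7a1, Cox7b2, Cox8b and Cox8c stay below 6 on every array, and the general isoforms lie above 8.

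RefSeq promoter sequences (build GRCm38.p6, 250 bases before to 50 after a gene's start) were matched by gene identifier for 62 of the 74 genes. The 100 bases upstream of the start are shown for 3 pairs of isoforms, general isoform first, 5′ to 3′ on the gene's strand, as examples of general isoforms beside a muscle isoform (Cox8b, Cox7a1) or a testis isoform (Cox6b2). Capitals mark a match to the core letters of a motif described after them, on either strand, that lies fully within the 100 bases. A match that runs past their end stays in lower case, as in Cox8a here and Atp5k below.
Cox8a (chr19:7217617-7217716, minus strand): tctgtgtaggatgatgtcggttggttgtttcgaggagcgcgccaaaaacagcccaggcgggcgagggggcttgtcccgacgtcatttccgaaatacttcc
Cox8b (chr7:140900447-140900546, minus strand): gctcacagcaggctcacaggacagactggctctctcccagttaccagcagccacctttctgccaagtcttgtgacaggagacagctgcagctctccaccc
Cox7a2 (chr9:79759854-79759953, minus strand): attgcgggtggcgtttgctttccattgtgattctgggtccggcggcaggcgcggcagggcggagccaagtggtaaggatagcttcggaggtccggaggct
Cox7a1 (chr7:30184071-30184170, plus strand): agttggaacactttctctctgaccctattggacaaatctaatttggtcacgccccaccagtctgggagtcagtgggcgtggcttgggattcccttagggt
Cox6b1 (chr7:30626115-30626214, minus strand): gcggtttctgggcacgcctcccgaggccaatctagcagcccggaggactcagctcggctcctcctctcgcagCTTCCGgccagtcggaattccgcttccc
Cox6b2 (chr7:4753095-4753194, minus strand): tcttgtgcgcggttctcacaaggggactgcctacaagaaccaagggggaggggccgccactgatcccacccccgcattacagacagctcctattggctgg

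In the full window, 4 untested isoform genes had a promoter (Cox6b2, Cox7a1, Cox7b2 and Cox8b) and held 2 to 10 CG dinucleotides, with a median of 8.5. The 58 tested subunit genes with a promoter held 5 to 43, with a median of 19.5. All 27025 genes of the RefSeq table had a median of 8, and the 8180 genes with a tested probe had a median of 22, so the subunits resembled the other genes measured in the tissue in this respect.

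Factors known to regulate respiratory chain genes are the nuclear respiratory factor NRF1, the ETS-family factor NRF2 (GABP) and YY1, so their core motifs were counted on both strands of each window. The NRF1 core (GCGC, any base, T, and GCGC again) occurred in 14 of 62 subunit promoters (22.6%), against 5.19% of all 27025 genes and 11.8% of the genes with a tested probe. The ETS core CGGAAG occurred in 27 of 62 (43.5%), against 18.8% of all genes and 34.8% of those with a tested probe. The YY1 core AAGATGGC occurred in 9 of 62 (14.5%), against 3.19% and 5.48%. The TATA letters TATAAA occurred in 8 of 62 (12.9%), against 15.7% and 9.5%. None of these letter strings contains another. A match describes letters in a window and is neither a binding site nor a cause of a level.

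The NRF1 core was spread over the complexes: 5 of 29 promoters of complex I (Ndufa5, Ndufa6, Ndufa8, Ndufb4, Ndufs5), 2 of 3 of complex II (Sdha, Sdhd), 1 of 4 of complex III (Uqcrc1), 1 of 12 of complex IV (Cox6a1) and 5 of 14 of complex V (Atp5c1, Atp5g2, Atp5g3, Atp5k, Atp5o). The ETS core was found in 8, 2, 2, 6 and 9 promoters of complexes I, II, III, IV and V, and the YY1 core in 6 of complex I and 3 of complex V. Of the 4 untested isoform promoters, 0 held an NRF1, ETS or YY1 core and 2 (Cox7b2, Cox8b) held TATAAA. The 4 sequences shown next, of the same kind, are promoters in which the NRF1 core lies in the upstream 100 bases, for subunits of complexes I, II and V.
Ndufb4 (chr16:37654369-37654468, minus strand): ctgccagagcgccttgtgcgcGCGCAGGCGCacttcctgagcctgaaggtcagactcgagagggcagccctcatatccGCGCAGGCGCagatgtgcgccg
Sdha (chr13:74350241-74350340, minus strand): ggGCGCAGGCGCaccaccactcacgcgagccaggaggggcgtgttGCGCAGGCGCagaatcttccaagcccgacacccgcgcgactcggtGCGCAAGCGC
Sdhd (chr9:50603850-50603949, minus strand): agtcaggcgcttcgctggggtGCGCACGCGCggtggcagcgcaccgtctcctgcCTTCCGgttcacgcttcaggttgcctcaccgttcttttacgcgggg
Atp5k (chr5:108434400-108434499, minus strand): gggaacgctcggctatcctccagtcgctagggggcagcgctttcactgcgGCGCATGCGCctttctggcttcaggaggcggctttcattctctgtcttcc

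Sdha and Ndufb4 held the core more than once in the upstream stretch. Sdha (ILMN_2607804), the flavoprotein that oxidizes succinate, read 9.30, 9.47 and 9.29 in KO and 9.65, 9.44 and 9.37 in WT. Atp5k (ILMN_2776900), subunit e of the ATP synthase, read 10.28, 10.89 and 10.90 in KO and 10.61, 10.58 and 10.80 in WT. Ndufb4 (ILMN_1227012), an accessory subunit of complex I, read 9.31, 9.49 and 9.51 in KO and 9.92, 8.89 and 9.58 in WT. The genotypes overlapped in each of these genes.

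No subunit gene differed between KO and WT past the threshold. In limma's test across all 20959 tested probes, with Benjamini-Hochberg adjustment, 0 of 89 member probes had an adjusted p below 0.05, against 0% of all tested probes. Before adjustment 2 of 89 member probes had a p below 0.05 (2.25%), against 4.49% of all tested probes, of which 2.89% were higher and 1.6% lower in KO. These 2 probes, 1 of Atp5l and 1 of Ndufa10, are second probes of their genes and are described below. All 3 KO arrays lay above or below all 3 WT arrays in 8 of 89 member probes (8.99%), against 9.82% of all tested probes. Since tissue samples were measured in bulk, fewer cells of a type and less RNA per cell cannot be told apart. None of these shares of the members exceeded that of all tested probes.

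Intervals within a 2-fold change were more frequent among the subunit genes than among all tested probes, and about as frequent as among probes of like level. Each gene was counted by its brightest tested probe, and second probes are not in the count. For 53 of 68 genes (77.9%) the 95% interval of the KO minus WT difference stayed within a 2-fold change in either direction, against 40.7% of all tested probes. Among the 4646 tested probes whose level lay between the quartiles of the subunit genes' levels, the share was 75%. The 15 genes whose interval reached past 2-fold were Ndufa6, Ndufa7, Ndufa8, Ndufb6, Ndufc1, Ndufs1, Ndufs3, Uqcr11, Uqcrh, Uqcrq, Cox6a1, Cox7a2, Atp5g1, Atp5g2 and Atp5o, and for these a 2-fold difference cannot be set aside.

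The mean was higher in KO for 43 of 68 genes and for 54 of 89 probes (60.7%), while over all tested probes the mean was higher in KO for 50.9% and lower for 49.1%. Among the 4646 tested probes with levels between the quartiles of the subunit genes' levels, the mean was higher in KO for 55.7%, with a median log2 fold change of 0.035. The median log2 fold change over the genes was 0.07, against 0.01 for all tested probes, and gene values ran between -0.49 (Ndufa8) and 0.59 (Atp5g1). By complex the median was 0.07 in I, -0.04 in II, 0.02 in III, 0.11 in IV and 0.05 in V. These medians moved with single arrays: without KO 1 it was 0.034 in IV and 0.0083 in V, and without KO 3 it was 0.0031 in V and 0.022 in I. Without the array WT 2 35 genes had their higher mean in KO and 33 in WT, and the median was 0.0078, against 0.0034 for all tested probes. Among the 40 named genes with a test, leaving out 1 array changed the sign of the fold change in 20 and moved it by over 1.5 times in 19 more, Sdhd being the exception.

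**Figure D2:**
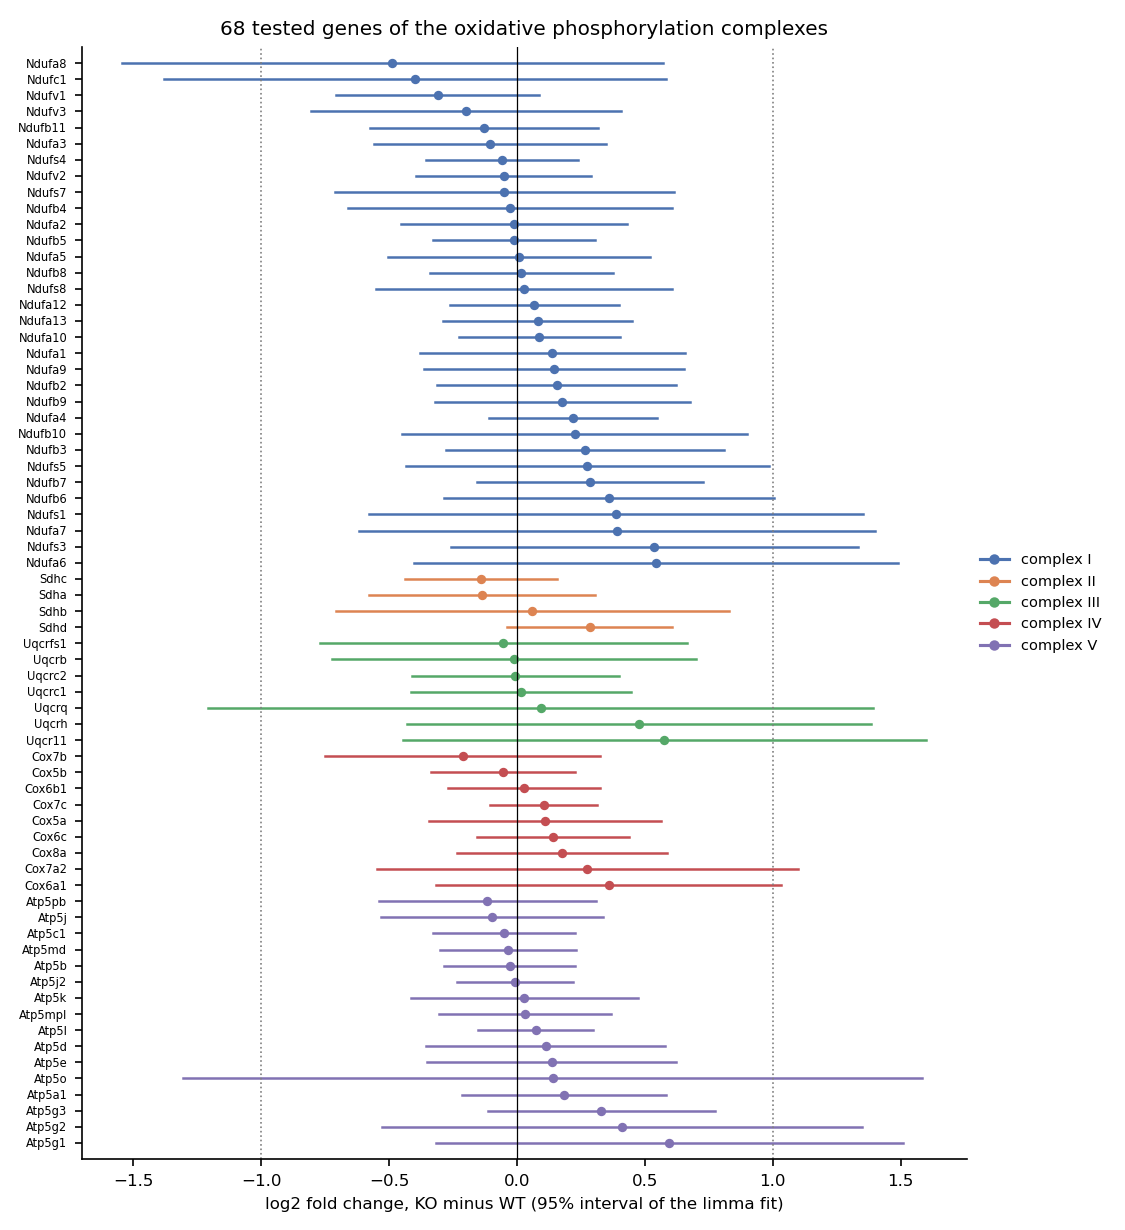
Log2 fold change, KO minus WT, of the 68 tested subunit genes with the 95% interval of the limma fit, coloured by complex. The points lie between -0.49 and 0.59, and 53 of the 68 intervals stay between -1 and 1.

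Complex I takes electrons from NADH, and its catalytic core was measured here by 7 nuclear-encoded subunits. Ndufv1 (ILMN_2702704), which binds NADH and the flavin, read 10.06, 10.08 and 9.86 in KO against 10.52, 10.09 and 10.31 in WT. Every KO array lay below every WT array, by a narrow margin between KO 2 and WT 2, and the log2 fold change was -0.31 (95% interval -0.71 to 0.09, limma adjusted p = 0.989). Its partner in the same module, the iron-sulfur subunit Ndufv2 (ILMN_2500827), read 10.42, 10.67 and 10.67 in KO against 10.79, 10.64 and 10.49 in WT, with overlapping groups and a log2 fold change of -0.05 (-0.40 to 0.29). Ndufs1 (ILMN_2691936), the large iron-sulfur subunit of that module, read 8.35, 8.09 and 8.14 in KO against 8.29, 6.98 and 8.15 in WT. Only WT 2 stood low, and the log2 fold change of 0.39 (-0.58 to 1.35) became -0.03 without it.

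Ndufs3 (ILMN_2747897), a core subunit of the quinone-reducing arm, read 8.43, 8.33 and 8.39 in KO against 7.75, 8.36 and 7.43 in WT. The KO arrays were close together, WT 2 lay among them and the other two WT arrays lay lower, with a log2 fold change of 0.54 (-0.26 to 1.33, limma adjusted p = 0.989). The neighbouring iron-sulfur subunit Ndufs7 (ILMN_2688763) read 8.17, 8.54 and 8.13 in KO against 8.28, 8.46 and 8.25 in WT. Ndufs8 (ILMN_2711734), which also carries iron-sulfur clusters, read 8.66, 8.74 and 9.19 in KO against 8.70, 8.87 and 8.94 in WT. Both overlapped fully, with log2 fold changes of -0.05 and 0.03.

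Accessory subunits gave the ends of the range in complex I. Ndufa6 (ILMN_2754849), a subunit of the LYR protein family, read 7.97, 7.82 and 7.93 in KO against 6.76, 7.81 and 7.52 in WT. All KO arrays were above all WT arrays, but KO 2 and WT 2 differed by little, and the log2 fold change was 0.54 (-0.40 to 1.49, limma adjusted p = 0.989). Ndufa8 (ILMN_2682019) read 7.58, 6.63 and 7.43 in KO against 7.41, 8.25 and 7.44 in WT, a log2 fold change of -0.49 (-1.54 to 0.57). Here KO 2 was low and WT 2 high, and the other 4 arrays lay together. Ndufc1 (ILMN_1229975) read 7.09, 7.12 and 7.12 in KO against 6.96, 7.67 and 7.90 in WT, a log2 fold change of -0.40 (-1.38 to 0.58). Ndufa4 (ILMN_2666062), long counted in complex I and since assigned to complex IV, read 11.55, 11.41 and 11.51 in KO against 11.00, 11.44 and 11.39 in WT, with 1 low WT array and a log2 fold change of 0.22 (-0.11 to 0.55). Across complex I, 20 genes had a higher and 12 a lower mean in KO, and no probe of its 39 tested ones passed the adjusted threshold.

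Complex II, succinate dehydrogenase, is the smallest of the complexes and has no mitochondrially encoded subunit. Its membrane anchor Sdhd (ILMN_1239143) read 11.17, 11.33 and 11.47 in KO against 10.96, 10.93 and 11.24 in WT. KO 1 was the only KO array below a WT array, and the log2 fold change of 0.28 (-0.04 to 0.61, limma adjusted p = 0.989) had a lower bound near 0. The other anchor, Sdhc (ILMN_2594149), read 12.22, 11.89 and 11.91 in KO against 12.32, 12.02 and 12.11 in WT, a log2 fold change of -0.14 (-0.44 to 0.16). Sdha had a log2 fold change of -0.14 (-0.58 to 0.30). Sdhb (ILMN_2769065), the iron-sulfur subunit, read 8.44, 7.80 and 8.26 in KO against 7.91, 8.0 and 8.40 in WT, a log2 fold change of 0.06 (-0.71 to 0.83). The 4 intervals all stayed within 2-fold, and 2 genes had a higher and 2 a lower mean in KO. The second Sdhb probe (ILMN_2592389) had the opposite sign, -0.30, and its interval of -1.33 to 0.72 reached past 2-fold. Over the 6 tested probes of complex II, 2 had a higher and 4 a lower mean in KO.

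Complex III, which passes electrons from ubiquinol to cytochrome c, had the largest median spread between arrays of the 5 complexes and 4 of its 7 intervals within 2-fold. Its median log2 fold change of 0.02 was -0.06 without WT 2 and -0.08 without KO 3. Its core proteins were steady: Uqcrc1 (ILMN_1256673) read 10.22, 9.78 and 9.95 in KO against 9.92, 9.82 and 10.16 in WT. Uqcrc2 (ILMN_2435140) read 10.15, 9.95 and 10.43 in KO against 10.08, 10.15 and 10.32 in WT. Their log2 fold changes were 0.02 (-0.41 to 0.45) and -0.01 (-0.41 to 0.40). The Rieske iron-sulfur protein Uqcrfs1 (ILMN_2473090) read 8.95, 8.22 and 8.81 in KO against 9.11, 8.64 and 8.39 in WT, and the ubiquinone-binding subunit Uqcrb (ILMN_2497616) read 8.42, 8.30 and 8.76 in KO against 8.81, 8.05 and 8.66 in WT. Both overlapped, with log2 fold changes of -0.05 (-0.77 to 0.66) and -0.01 (-0.72 to 0.70).

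The small subunits of complex III varied more. Uqcr11 (ILMN_2447560) read 8.81, 8.79 and 8.74 in KO against 7.13, 8.64 and 8.84 in WT. Its log2 fold change of 0.58 (-0.45 to 1.60) came from WT 1 and was 0.04 without that array. Uqcrh (ILMN_2512849), the hinge protein at the contact with cytochrome c, read 9.07, 8.35 and 8.11 in KO against 7.93, 7.57 and 8.60 in WT, a log2 fold change of 0.48 (-0.43 to 1.38). Uqcrq (ILMN_1252263) read 8.43, 7.91 and 8.67 in KO against 9.06, 6.86 and 8.80 in WT. WT 1 and WT 2 were its highest and lowest arrays, and the log2 fold change of 0.09 (-1.21 to 1.39) became -0.60 without WT 2.

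Complex IV, cytochrome c oxidase, had its higher mean in KO in 7 genes and in WT in 2. Cox5a (ILMN_2682800), a nuclear-encoded subunit on the matrix side, read 10.29, 9.74 and 10.11 in KO against 9.99, 9.76 and 10.07 in WT. Cox5b (ILMN_2721648) read 11.07, 11.34 and 11.32 in KO against 11.27, 11.36 and 11.26 in WT. The log2 fold changes were 0.11 (-0.34 to 0.56) and -0.06 (-0.34 to 0.23), and both groups overlapped. Among the general isoforms described above, the log2 fold change was 0.36 (-0.32 to 1.03) for Cox6a1, 0.03 (-0.27 to 0.32) for Cox6b1 and 0.27 (-0.55 to 1.10) for Cox7a2. It was -0.21 (-0.75 to 0.32) for Cox7b, where KO 1 was low, and 0.18 (-0.23 to 0.58) for Cox8a. Without WT 2 it was 0.18 for Cox6a1 and 0.074 for Cox7a2, and without KO 1 it was 0.018 for Cox8a and 0.034 for Cox7b.

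Complex V makes ATP with a catalytic head of alpha and beta subunits, and these were steady. Atp5b (ILMN_2598972), the catalytic beta subunit, read 11.47, 11.52 and 11.67 in KO against 11.66, 11.50 and 11.60 in WT. Atp5a1 (ILMN_2633229), the alpha subunit, read 10.59, 10.30 and 10.49 in KO against 10.40, 10.00 and 10.43 in WT. Atp5c1 (ILMN_1249783), the gamma subunit of the rotating stalk, read 11.24, 11.07 and 11.13 in KO against 11.24, 11.27 and 11.08 in WT. The groups overlapped in all of them, with log2 fold changes of -0.03 (-0.28 to 0.23), 0.18 (-0.22 to 0.58) and -0.05 (-0.33 to 0.23).

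The rotor ring of complex V is built of subunit c, and the genes Atp5g1, Atp5g2 and Atp5g3 encode the same mature protein. Atp5g3 (ILMN_2692124) read 12.11, 11.55 and 11.79 in KO against 11.61, 11.13 and 11.73 in WT. Atp5g1 (ILMN_1230991) read 8.68, 8.74 and 8.41 in KO against 8.46, 7.18 and 8.40 in WT. Atp5g2 (ILMN_1216749) read 9.01, 9.07 and 9.07 in KO against 7.67, 9.37 and 8.89 in WT. All 3 had a higher mean in KO, with log2 fold changes of 0.33 (-0.11 to 0.77) for Atp5g3, 0.59 (-0.32 to 1.51) for Atp5g1 and 0.41 (-0.53 to 1.35) for Atp5g2. Each depended on 1 low WT array: Atp5g3 had 0.15 and Atp5g1 0.18 without WT 2, and Atp5g2 had -0.08 without WT 1.

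Complex V also held the steadiest and nearly the most variable genes of the set. Atp5md (ILMN_1219002), a small membrane subunit, read 11.02, 11.06 and 11.06 in KO against 11.15, 11.01 and 11.09 in WT, with a within-genotype SD of 0.051. Atp5j2 (ILMN_1213914), subunit f, read 12.00, 11.98 and 12.09 in KO against 12.10, 11.94 and 12.06 in WT, with an SD of 0.072. Atp5l (ILMN_2587859), subunit g, read 12.06, 12.19 and 12.20 in KO against 12.15, 12.01 and 12.06 in WT, with an SD of 0.073. In these genes any array differed from any other by little, and the intervals of the genotype difference were -0.30 to 0.23, -0.23 to 0.22 and -0.15 to 0.30. Atp5o (ILMN_1237733), the stalk subunit that confers oligomycin sensitivity, read 7.91, 6.25 and 6.89 in KO against 5.80, 7.31 and 7.53 in WT, with an SD of 0.89. Its arrays were spread widely in both groups, and the log2 fold change of 0.14 had an interval of -1.31 to 1.58. The peripheral stalk subunits Atp5j (ILMN_2632890) and Atp5pb (ILMN_2717599) had log2 fold changes of -0.10 (-0.53 to 0.34) and -0.12 (-0.54 to 0.31).

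The subunit genes varied less between arrays of a genotype than most probes did. Their median within-genotype SD was 0.22 on the log2 scale (16.3% in linear terms), against 0.43 (34.4%) for all tested probes. It was 0.38 over tested probes detected on all 6 arrays, and 0.30 over tested probes with levels between the quartiles of the subunit genes' levels, so part of the gap went with signal level. By complex the median SD was 0.22 in I, 0.17 in II, 0.37 in III, 0.22 in IV and 0.20 in V. Complex III held 2 of the 3 genes with the largest SD, Uqcrq (0.89) and Uqcr11 (0.66), beside Atp5o. The median level was 9.46 in I, 10.30 in II, 8.50 in III, 10.42 in IV and 10.65 in V, each over probes that also differ in how well they hybridize. The standard error between the beads of 1 array was a median of 3.83% of the intensity for the subunit genes and 4.23% for all tested probes.

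**Figure D3:**
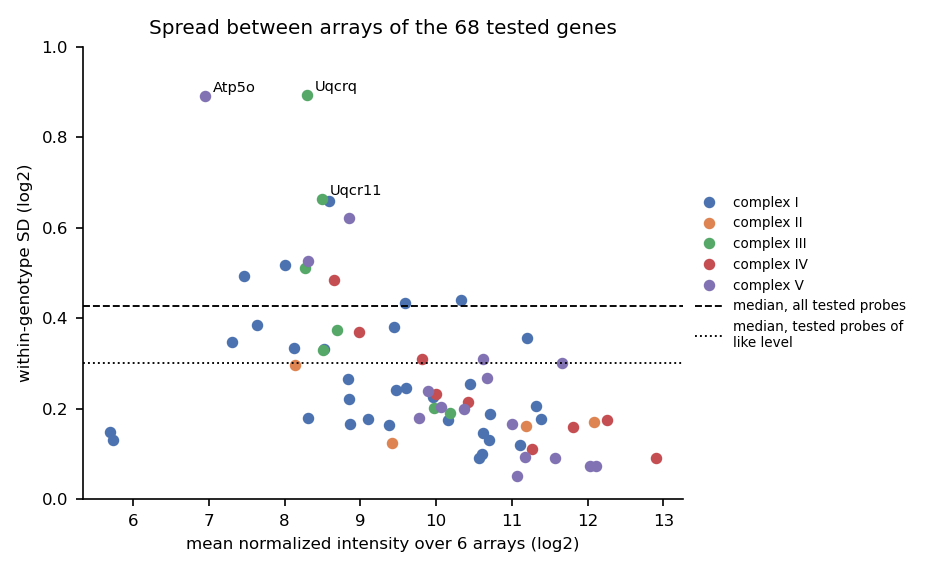
Within-genotype SD of log2 intensity against mean normalized log2 intensity over 6 arrays, for the 68 subunit genes coloured by complex, with a dashed line at the median of all tested probes (0.43) and a dotted line at that of tested probes of like level (0.30). Most subunit genes lie below an SD of 0.4, while Uqcrq, Atp5o, Uqcr11, Ndufa7 and Atp5g2 stand above 0.6.

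The arrays did not contribute alike. WT 2 was the lowest of the 6 arrays in 27 of 68 subunit genes (39.7%), against 25.1% of all tested probes, and WT 1 was lowest in 16 (23.5%), against 22.2%. KO 1 was the highest array in 20 genes (29.4%), against 14.3% of all tested probes. The median deviation from a gene's mean over 6 arrays was 0.08, -0.04 and 0.11 on the KO arrays and -0.05, -0.10 and 0.08 on the WT arrays. KO 2 and WT 2 were the low arrays of their groups, and they also had the lowest pigment gene level of their groups and the lowest share of detected probes of their groups. The part of tissue makeup and RNA quality in this was not tested. The pattern was largest in complex III, with medians of 0.25, -0.20 and 0.25 on KO arrays and -0.06, -0.16 and 0.19 on WT arrays. In complex IV they were 0.11, 0.04 and 0.12 on KO arrays and 0.00, -0.18 and 0.08 on WT arrays.

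**Figure D4:**
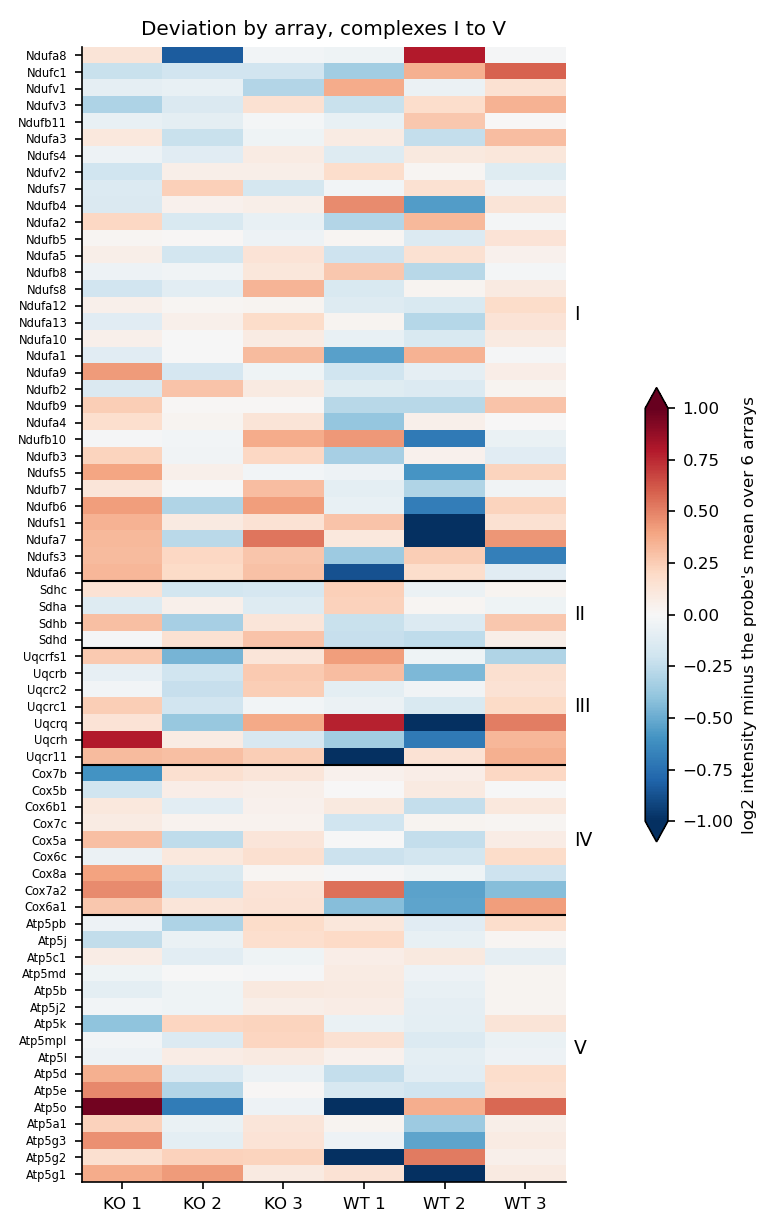
Log2 intensity minus the probe's mean over 6 arrays for each of the 68 tested subunit genes (rows, by complex) on the KO and WT arrays (columns). WT 2 is the lowest array in 27 genes, and single cells such as Uqcr11 on WT 1 or Atp5g1 on WT 2 stand out from their rows.

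Different probes of a gene did not always give the same value. Of the 18 genes with more than 1 tested probe, 21 pairs of probes could be compared, each against the probe with the highest mean, and 9 pairs had fold changes of opposite sign. The median difference between the log2 fold changes of a pair was 0.19, and 11 pairs lay within 0.2. Cox7c, a small complex IV subunit, gave 12.98, 12.93 and 12.93 in KO against 12.70, 12.92 and 12.91 in WT with ILMN_1259219, where the lowest KO and the highest WT array nearly met. Its second probe (ILMN_2647188) gave 12.41, 12.37 and 12.32 in KO against 11.95, 12.26 and 12.42 in WT, and the log2 fold changes were 0.10 and 0.15. Cox6a1 (0.36 and 0.37), Sdhc (-0.14 and -0.15) and Ndufv2 (-0.05 and -0.08) likewise had close values from both probes.

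The 2 probes with an unadjusted p below 0.05 were not matched by the brighter probe of their gene. The second probe of the accessory complex I subunit Ndufa10 (ILMN_2477629) read 5.29, 5.38 and 5.62 in KO, where it was not detected on any array, against 7.43, 6.27 and 6.23 in WT. It passed the detection filter through the WT arrays alone, so its separation and its place among the 2 probes are no support for a difference. With the values of the undetected arrays taken no lower than the dimmest detected probe, the KO mean was 1.98-fold below the WT mean. The measured means were 5.43 in KO and 6.64 in WT. The log2 fold change was -1.21 (-2.06 to -0.37, limma adjusted p = 0.989). The main Ndufa10 probe (ILMN_2657946) read 10.61, 10.56 and 10.65 in KO against 10.49, 10.42 and 10.66 in WT, a log2 fold change of 0.09 (-0.23 to 0.40). The second probe of Atp5l (ILMN_2705268) read 9.14, 9.14 and 8.93 in KO against 7.68, 7.91 and 8.73 in WT, a log2 fold change of 0.96 (0.21 to 1.72, limma adjusted p = 0.989). The main Atp5l probe, described above, had 0.07 (-0.15 to 0.30).

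Other pairs differed by more than 0.5 on the log2 scale. The Atp5pb probe ILMN_1249817 had a log2 fold change of 0.97 and ILMN_2584890 had -0.63, against -0.12 for the main probe. The second Cox5b probe (ILMN_2772319) read 8.01, 7.92 and 7.82 in KO against 6.86, 7.37 and 7.76 in WT, a log2 fold change of 0.59 against -0.06 for the main probe. The second Atp5c1 probe (ILMN_2442554) had 0.55 against -0.05, and it was detected on 3 KO arrays and 1 WT array. The current gene table names pseudogenes for 9 of the 74 genes, 14 loci in all, and Atp5c1, Atp5l, Atp5pb and Cox5b are among the 9. So are Atp5k and Cox7c, whose probes gave close log2 fold changes (0.03 and 0.05 for Atp5k, 0.10 and 0.15 for Cox7c). Ndufa10, whose pair differed most, is not among them. Whether these probes also hybridize to pseudogene transcripts, or report other transcript ends, was not tested.

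**Figure D5:**
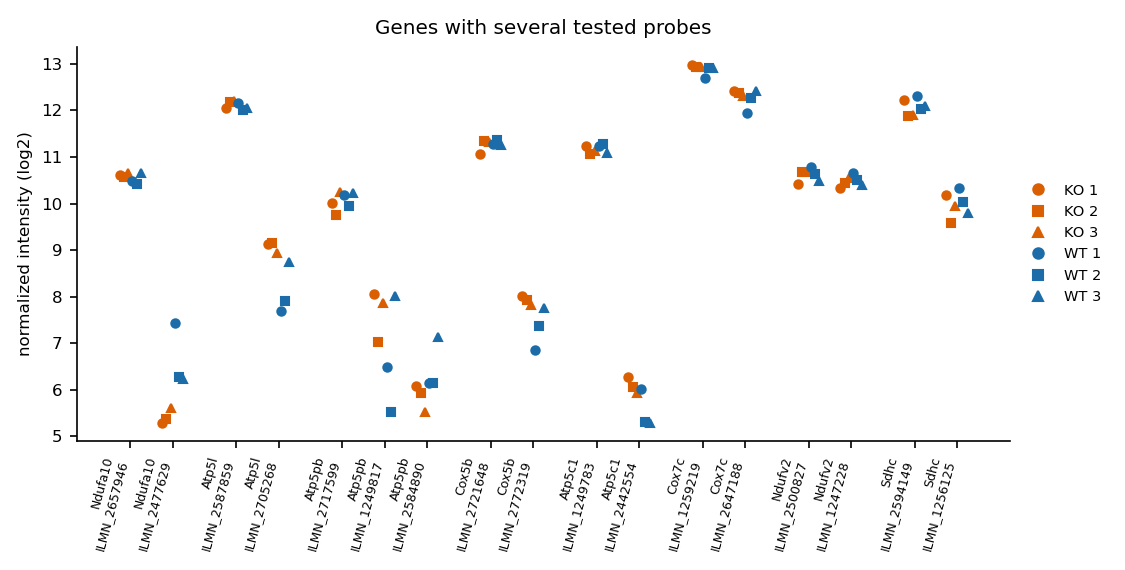
Normalized log2 intensity on KO and WT arrays of every tested probe of Ndufa10, Atp5l, Atp5pb, Cox5b, Atp5c1, Cox7c, Ndufv2 and Sdhc. These were picked from the 18 genes with more than 1 tested probe. The second probes of Ndufa10 and Atp5l separate the genotypes while the brightest probes of the same genes, near 10.5 and 12, do not. The groups also do not overlap for Cox5b ILMN_2772319, Atp5pb ILMN_2584890 and the brightest Cox7c probe.

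Related mitochondrial genes were counted from fixed lists. None passed the adjusted threshold in limma's test, against 0% of all tested probes, so this does not set the lists apart. The 13 mitochondrially encoded subunits were searched under 26 spellings, and 0 probes carried one as their symbol, while 16646 probes carry no symbol. Of the assembly factors, which build the complexes without being part of them, 37 of 47 were measured. An unadjusted p below 0.05 was reached by 0 of the 37, against 4.49% of all tested probes. They had 24 higher and 13 lower means in KO, while 50.9% of all tested probes had the higher mean in KO. The median log2 fold change of the assembly factors was 0.10. Their ends were Cox11 (-0.60, -1.43 to 0.24), which delivers copper to complex IV, and Tmem70 (1.26, -0.19 to 2.70), which helps to assemble complex V. Cox10, which acts in making the heme of complex IV, read 9.70, 9.25 and 9.77 in KO against 9.57, 6.19 and 9.69 in WT, so that WT 2 alone was low. Genes of the citric acid cycle (15 of 18 measured) had 6 higher and 9 lower means in KO and a median of -0.02, and those of mitochondrial import and the outer membrane (14 of 15 measured) had 10 higher and 4 lower and a median of 0.05. Electron carriers and coenzyme Q synthesis (6 of 16 measured) had 3 higher and 3 lower means and a median of 0.03. The 4 subunits with names outside the selection, Cox4i1, Cox4i2, Ndufab1 and Cyc1, had 2 higher and 2 lower means and a median of 0.03.

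Of the regulators of mitochondrial biogenesis, 16 of 20 were measured, with 7 higher and 9 lower means in KO and a median log2 fold change of -0.04. Only 1 of the 16 had an unadjusted p below 0.05, against 4.49% of all tested probes. This was Ppargc1a, the coactivator PGC-1α that switches on respiratory genes. It read 5.92, 5.67 and 5.69 in KO against 7.21, 6.18 and 6.84 in WT, a log2 fold change of -0.98 (-1.81 to -0.16, limma adjusted p = 0.989). All KO arrays lay below all WT arrays, and the KO values were near the floor of the arrays. Among all tested probes, 9.82% had groups that did not overlap.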

How the data were processed

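Gene expression was measured on 6 Illumina bead arrays, 3 KO and 3 WT, all on 1 slide. Per the file headers, the deposited table has 4 columns per array over 46632 probes: the mean intensity of a probe's beads, their count, the standard error between them and a detection p-value. The submitters' processing notes name GenomeStudio. The intensity values were linear and showed no normalization. A deposited series matrix holds processed intensity values, with medians of 18.53, 18.51 and 18.54 on KO arrays and 18.53, 18.54 and 18.54 on WT arrays, values below 0 and the same order of probes as the intensity of each array. Their direction is therefore known, while the methods of background subtraction and centring are not stated, and they served as an alternative.

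The function neqc of limma 3.58.1 (R 4.3.3) inferred negative controls from the detection p-values, subtracted background by normexp, added 16, applied quantile normalization and took log2. The 20959 probes detected at p below 0.05 on 3 or more arrays were fitted with lmFit and eBayes with a trend, KO minus WT, two-sided, with Benjamini-Hochberg adjustment over all of them. All 6 arrays entered the reported fit, with no imputed values. The fit was tested on simulated data. Where a gene had several tested probes, the one with the highest mean stands for it. Symbols came from the platform annotation (29976 probes with 1 symbol, 10 with several, 16646 with none); the 74 members' identifiers were all found in the current RefSeq table and 0 symbols differed. Promoter sequences and coordinates come from RefSeq (GRCm38.p6).

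The members, the gene lists and the choice of tests were made with earlier results of these data known. The named genes were, per complex, the pair with the largest positive and the pair with the largest negative fold change (1 each in complex II), the core catalytic subunits, the isoform sets, and the 3 genes with the largest and the 3 with the smallest SD between arrays. Cox7c, Ndufb7, Ndufb11, Ndufa10, Ndufb4, Atp5k and the second probes were chosen after their values were seen, as were Cox11, Cox10, Tmem70 and Ppargc1a. Alternatives were other background corrections, scalings, detection filters, array weights, a pigment level covariate, the replicate number as a block, and leaving out each array.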

Additional observations from a re-analysis of the deposited data

How the results depend on the processing

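Of 17 fits, none called a member probe, or any other tested probe, at an adjusted p below 0.05. The lowest adjusted p of a named gene in any fit was 0.656, when pigment level entered as a covariate. The count with an unadjusted p below 0.05 was 2 of 89 in the fit reported, against 4.49% of all tested probes. It was 4 of 89 with array weights (against 5.84%) and 7 of 89 with the pigment covariate (against 7.12%). It was 1 of 81 with detection on all 6 arrays (against 4.46%) and 1 of 82 with a detection p below 0.01 (against 4.09%). Without single arrays it was between 1 and 5 of 89, against 2.76% to 7.09% of all tested probes. The count of probes with separate groups, 8 as reported, was 5 under either stricter detection filter (6.17% and 6.10% of members, against 9.83% and 9.42% of all tested probes). Without single arrays it was between 11 and 21, or 12.4% to 23.6% of members against 15.7% to 23.1% of all tested probes, and the members' share was the higher without KO 2 (21.3% against 17.5%) and without WT 3 (23.6% against 23.1%). The median SD was 0.29 with median scaling and between 0.187 and 0.237 without single arrays. The median of complex II was 0.046 with the pigment covariate and -0.14 over its 6 tested probes, second probes included. Without single arrays it lay between -0.093 and 0.080, and that of complex I between 0.011 and 0.16. The median of all members, 0.070 as reported, was 0.024 with median scaling, 0.027 with array weights, 0.045 with no detection filter and between 0.0078 and 0.12 without single arrays. Without single arrays the median of complex III lay between -0.075 and 0.16, that of IV between 0.034 and 0.13 and that of V between 0.0031 and 0.081, and that of IV was 0.028 with no detection filter. The median of complex III turned to -0.025 with median scaling and -0.0093 with array weights, and that of complex V to -0.00078 with array weights; the cause was not tested. Among named genes, 53 of 640 recomputed fold changes changed sign, in 20 of 40 genes, of which Atp5g2 had the largest reported value, 0.41. Signs turned with array weights to -0.15 for Atp5o, -0.026 for Cox6b1, 0.024 for Ndufv2, -0.052 for Sdhb, -0.082 for Uqcrc1, 0.040 for Uqcrfs1 and -0.11 for Uqcrq. With the pigment covariate they turned to 0.013 for Atp5j2, -0.021 for Ndufs8, 0.10 for Uqcrb, 0.0051 for Uqcrc2 and 0.045 for Uqcrfs1, and with median scaling to -0.025 for Uqcrc1. Without single arrays the fold change lay between -0.085 and 0.011 for Atp5b, -0.079 and 0.77 for Atp5g2, -0.21 and 0.0017 for Atp5j, -0.055 and 0.027 for Atp5j2, -0.40 and 0.53 for Atp5o, -0.24 and 0.0077 for Atp5pb, -0.015 and 0.26 for Cox5a, -0.10 and 0.030 for Cox5b, -0.086 and 0.088 for Cox6b1, -0.35 and 0.034 for Cox7b, -0.027 and 0.63 for Ndufs1, -0.18 and 0.024 for Ndufs7, -0.14 and 0.13 for Ndufs8, -0.13 and 0.032 for Ndufv2, -0.077 and 0.24 for Sdhb, -0.24 and 0.14 for Uqcrb, -0.10 and 0.12 for Uqcrc1, -0.13 and 0.11 for Uqcrc2, -0.22 and 0.16 for Uqcrfs1 and -0.60 and 0.50 for Uqcrq. Of the genes that kept their sign, it lay between 0.047 and 0.27 for Atp5a1, -0.11 and -0.012 for Atp5c1, 0.18 and 0.82 for Atp5g1, 0.15 and 0.46 for Atp5g3, 0.041 and 0.12 for Atp5l, -0.072 and -0.0038 for Atp5md, 0.18 and 0.65 for Cox6a1, 0.074 and 0.62 for Cox7a2, 0.018 and 0.30 for Cox8a, 0.08 and 0.30 for Ndufa4, 0.24 and 0.76 for Ndufa6, -0.67 and -0.19 for Ndufa8, -0.67 and -0.20 for Ndufc1, 0.33 and 0.79 for Ndufs3, -0.42 and -0.20 for Ndufv1, -0.20 and -0.057 for Sdha, -0.25 and -0.057 for Sdhc, 0.21 and 0.38 for Sdhd, 0.038 and 0.90 for Uqcr11 and 0.20 and 0.76 for Uqcrh.

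Correlations between arrays could not settle whether the replicate numbers pair the samples, with only 3 arrays a group. Same-numbered KO and WT arrays correlated at 0.11, 0.14 and -0.0076 in their deviations from the group means. Arrays of different number correlated between -0.19 and 0.13, and not every array correlated best with its own number. With the replicate block 0 member probes were called and the median fold change was 0.07. In that fit 3 of 89 member probes had an unadjusted p below 0.05, against 4.70% of all tested probes. The alternative without Atp5s and Atp5sl could not be run, since no selected probe carries either symbol. With 3 arrays a group, the intervals printed beside the fold changes give the range of each difference before adjustment over all tested probes. They do not state the smallest difference that could have been detected.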
